A study of Mus musculus with 6 samples.

Results

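The 64 genes described here encode the enzymes that clear peroxides, superoxide, electrophiles and aldehydes, together with the regulator pair that controls many of them. They were chosen by symbol: the glutathione S-transferases (Gst, Mgst), glutathione peroxidases (Gpx), peroxiredoxins (Prdx), thioredoxins and their reductases (Txn, Txnrd), superoxide dismutases (Sod), aldehyde dehydrogenases (Aldh) and 10 further genes taken by name. They are 64 of the 14472 genes in the authors' deposited table. RefSeq lists 79 protein-coding mouse symbols that match the same rule, of which 64 have a row in the table, and the others were not analysed here. RNA came from mLPS1, a line from a mouse dedifferentiated liposarcoma, which is a malignancy of fat-lineage cells that no longer look like adipocytes. There were 3 libraries of the line labelled NICD Knockout (p numbers 34, 36 and 39 in their titles) and 3 of the line labelled WT (p numbers 35, 37 and 40). NICD stands for Notch intracellular domain, a fragment that an activated Notch receptor releases to switch on target genes in the nucleus. The labels name no strain, treatment or vector, 1 cell line stands for each genotype, while Notch over-expression is named in the series title, so it is not clear from them what the line labelled WT carries.

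Glutathione is a tripeptide thiol that cells build from glutamate, cysteine and glycine and use to reduce peroxides and to conjugate electrophiles. Thioredoxins, peroxiredoxins and the NADPH-dependent reductases form a parallel thiol system, while superoxide dismutases and catalase act without thiols. The transcription factor Nrf2, encoded by Nfe2l2, is held down by the ubiquitin ligase adaptor Keap1 and, once released, induces many of these genes through antioxidant response elements in their control regions. Aldehyde dehydrogenases oxidise aldehydes from lipid peroxidation, amino acid breakdown and alcohol, and members of the Aldh1a group make retinoic acid.

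The deposited table holds 1 comparison, NICD Knockout over WT as read from its name, giving for every gene its average normalised count, a log2 fold change, the standard error (SE) of that change and a p. A gene is called here when the table's adjusted p is under 0.05. Group levels below are fitted from that mean and fold change, in normalised counts per library without correction for transcript length, since no value of a single library was used here. Each library has its own p number, but nothing in the labels says what these numbers mean, whether they pair the lines, or that the libraries were separate cultures, so each p measures spread between these libraries alone, which may be technical. The depth of each library is unknown. Notch1 was fitted at 2234 in the knockout and 7665 in WT in the authors' deposited table (log2 change -1.78, SE 0.13), and the direct Notch targets Hey1 and Nrarp had log2 fold changes of -6.90 and -6.31. Mesenchymal markers had a summed level of 78410 in the knockout and 159343 in WT over 6 of 7 listed genes in the authors' deposited table, most of it from Vim, Col1a1, Pdgfrb and Col3a1. Of the scarcer ones, Pdgfra rose to 172 in the knockout, against 33.6 in WT, and Col1a2 to 37.4 in the knockout, against 15.5 in WT, in the authors' deposited table. Leukocyte markers summed to 47.7 in the knockout and 114 in WT over 3 of 6 genes, and endothelial markers to 50.1 in the knockout and 63.6 in WT over 4 of 4, in the authors' deposited table, which holds none of 4 hepatocyte markers. The adipocyte markers summed to 312 in the knockout and 18.8 in WT in the authors' deposited table, with 2 of 7 listed genes in it, Fabp4 (307 in the knockout, 4.37 in WT) and Pparg (4.39 in the knockout, 14.4 in WT). The epithelial list had 1 of 4 in the authors' deposited table, Krt8, fitted at 54.4 in the knockout and 5.38 in WT. The part of these markers in the results was not tested, and in bulk RNA fewer cells that express a gene and less of its RNA per cell cannot be told apart.

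Of the 64 genes, 22 rose and 18 fell in the knockout by the authors' deposited table, and 24 did not pass. The called share was 62.5%, against 50.5% of all 14470 genes tested, of which 25.4% were higher and 25.1% lower. At a mean of at least 100, where 49 of the 64 lie, 15 rose and 17 fell, against 24.4% higher and 30.2% lower among the 10479 genes at that level. The median log2 fold change was -0.10 over the 64 genes and 0.02 over all genes in the authors' deposited table, so the set as a whole had no common direction. The families did differ in their counts: 11 of 21 glutathione transferases rose and 5 fell, 6 of 15 aldehyde dehydrogenases rose and 1 fell, and of the 19 peroxidase, thioredoxin, dismutase and catalase genes 2 rose and 8 fell by the authors' deposited table. A difference of counts between families was not tested. Among all genes tested, 3675 rose and 3628 fell, of which 2554 and 3164 lay at a mean of at least 100. Below that mean, rises therefore outnumbered falls over all genes. Of the 15 detoxification genes below a mean of 100, 7 rose and 1 fell. The 7 were Gsta1, Gstm7, Gstt2, Gstt4, Mgst2, Aldh1a1 and Aldh5a1, so genes of low count make up part of these rises. The mu, theta and omega transferases stand side by side within each class, so their changes may not be separate. Changes of at least 2-fold were reached by 17 genes upward and 7 downward in the authors' deposited table, against 13.4% and 9.74% of all genes. The lowest value among the 64 was that of Aldh1a3 and the highest that of the barely detected Gstt4, with Mgst1 highest among those at a mean of at least 100.

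**Figure D1:**
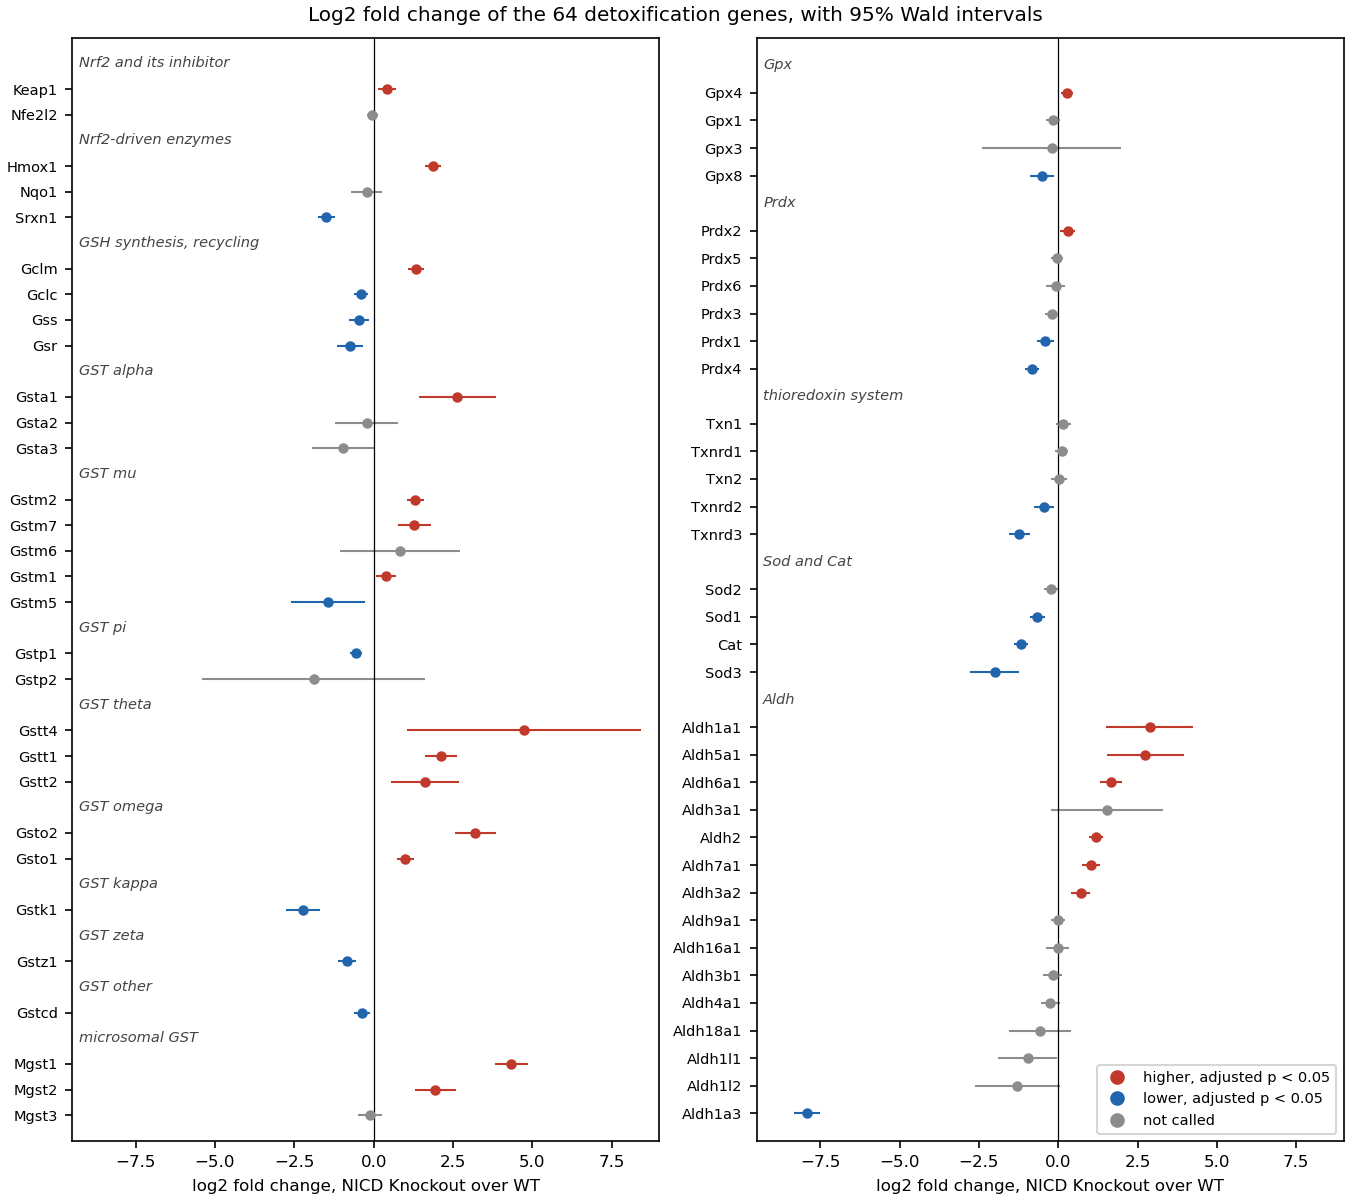
Log2 fold change (horizontal axis, NICD Knockout over WT) of the 64 genes, grouped by family, with points for the deposited estimate and bars for the 95% Wald interval, coloured by call. The transferases of the omega and theta classes and Mgst1 and Mgst2 lie to the right of 0, the points of catalase and the 3 dismutases to the left, and Aldh1a3 stands at -7.90.

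**Figure D2:**
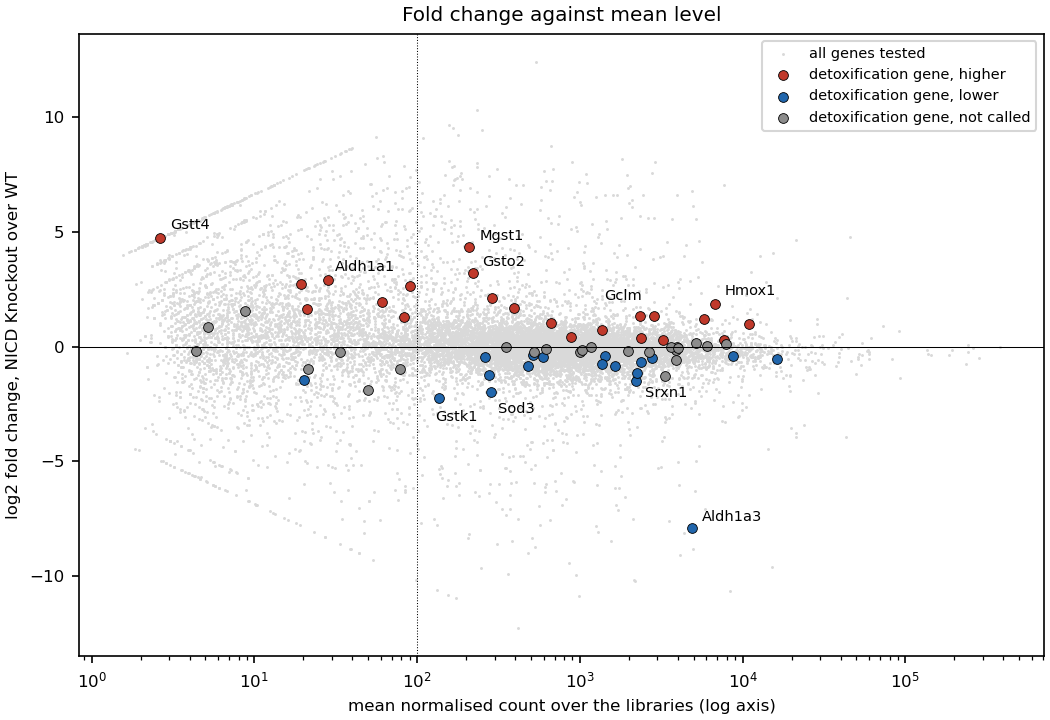
Log2 fold change (vertical axis, NICD Knockout over WT) against the average normalised count (horizontal log axis) for all 14470 genes tested (grey dots) and the 64 detoxification genes (large points, coloured by call). The dotted line marks a mean of 100, and Aldh1a3, at a mean of 4895, lies far below the other 63 genes.

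Of the regulator pair, Keap1 passed the test and Nfe2l2 did not. Nfe2l2 (ENSMUSG00000015839), which encodes Nrf2, was fitted at 3888 in the knockout and 3990 in WT in the authors' deposited table, so the log2 change was -0.04, with an interval from -0.22 to 0.14 (adjusted p = 0.764). Keap1 (ENSMUSG00000003308), its inhibitor, rose 1.34-fold, with 1016 in the knockout and 757 in WT (log2 change 0.43, SE 0.14, adjusted p = 0.00704 in the authors' deposited table). These are RNA levels, and Nrf2 is controlled mainly through its protein.

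Hmox1, Srxn1 and Nqo1, enzyme genes often used as Nrf2 readouts, did not share a direction. Hmox1 (ENSMUSG00000005413), the heme oxygenase that breaks heme down to biliverdin, carbon monoxide and iron, rose 3.64-fold to 10653 in the knockout, against 2927 in WT (log2 change 1.86, SE 0.13, adjusted p = 4.04e-45 in the authors' deposited table). Srxn1 (ENSMUSG00000032802), sulfiredoxin, which repairs over-oxidised peroxiredoxins, fell 2.81-fold to 1155 in the knockout, against 3244 in WT (log2 change -1.49, SE 0.14, adjusted p = 4.45e-26 in the authors' deposited table). Nqo1 (ENSMUSG00000003849), a quinone reductase, was fitted at 2469 in the knockout and 2881 in WT and did not pass (log2 change -0.22, interval -0.71 to 0.27, adjusted p = 0.479 in the authors' deposited table). The 3 intervals of log2 fold change do not overlap one another.

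The core of the antioxidant response element was searched in the promoter windows of RefSeq (build GRCm38.p6, from 250 bases before to 50 after a start site) as TGACNNNGC or TGAGNNNGC on either strand. A window was matched by symbol for 53 of the 64 genes. At least 1 match was present for 22 of these 53 (41.5%), against 2960 of 8276 genes with a window and a mean of at least 100 (35.8%). The 53 were not filtered by mean, and without that filter 8314 of 27025 genes with a window held a match (30.8%). Matches were found for 7 of 18 genes that rose, 8 of 14 that fell and 7 of 21 not called, so a match went with no single direction. The windows of 5 genes with a match are shown because these genes differ in their response: Mgst1 and Gclm rose, Srxn1 and Prdx1 fell, and Txnrd1 did not pass. Capitals mark the matches, each sequence runs 5′ to 3′ along the gene's strand, which is plus for all 5, and a match is a description of letters, not a site. Mgst1 and Txnrd1 have further windows, and the one shown holds the match.
Mgst1, chr6:138140277-138140576: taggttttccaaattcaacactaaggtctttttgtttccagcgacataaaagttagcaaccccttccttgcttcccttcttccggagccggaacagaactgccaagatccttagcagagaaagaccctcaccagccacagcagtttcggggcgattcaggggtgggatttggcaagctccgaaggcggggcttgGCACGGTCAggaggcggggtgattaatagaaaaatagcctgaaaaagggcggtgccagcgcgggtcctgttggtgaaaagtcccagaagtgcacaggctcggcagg
Gclm, chr3:122245307-122245606: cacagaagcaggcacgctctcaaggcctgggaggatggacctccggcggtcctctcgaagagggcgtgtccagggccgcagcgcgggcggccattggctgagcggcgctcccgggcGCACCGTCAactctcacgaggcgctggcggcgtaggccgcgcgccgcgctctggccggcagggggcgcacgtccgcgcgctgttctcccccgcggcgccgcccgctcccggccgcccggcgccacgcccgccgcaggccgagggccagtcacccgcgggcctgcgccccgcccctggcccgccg
Srxn1, chr2:152105274-152105573: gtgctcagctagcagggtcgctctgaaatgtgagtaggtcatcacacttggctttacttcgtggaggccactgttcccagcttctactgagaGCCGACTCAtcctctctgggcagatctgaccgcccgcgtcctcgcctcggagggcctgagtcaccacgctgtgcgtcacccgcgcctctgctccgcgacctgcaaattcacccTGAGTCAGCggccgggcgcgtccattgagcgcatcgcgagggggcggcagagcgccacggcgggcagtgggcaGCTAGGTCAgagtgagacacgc
Prdx1, chr4:116685349-116685648: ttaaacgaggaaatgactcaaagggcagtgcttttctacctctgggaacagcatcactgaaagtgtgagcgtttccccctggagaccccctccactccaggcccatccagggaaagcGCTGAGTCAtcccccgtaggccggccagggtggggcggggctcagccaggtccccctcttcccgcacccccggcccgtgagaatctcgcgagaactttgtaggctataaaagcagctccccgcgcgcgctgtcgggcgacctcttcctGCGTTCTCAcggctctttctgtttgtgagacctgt
Txnrd1, chr10:82858956-82859255: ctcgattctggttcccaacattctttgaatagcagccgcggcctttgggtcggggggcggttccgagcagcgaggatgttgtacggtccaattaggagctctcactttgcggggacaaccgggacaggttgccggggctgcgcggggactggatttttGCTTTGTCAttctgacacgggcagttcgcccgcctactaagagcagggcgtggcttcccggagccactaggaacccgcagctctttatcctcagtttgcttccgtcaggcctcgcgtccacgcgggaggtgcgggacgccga
Srxn1 holds 3 matches, read on their own strand as TGAGTCGGC, TGAGTCAGC and TGACCTAGC, and Prdx1 holds TGACTCAGC and TGAGAACGC. The single matches are TGACCGTGC in Mgst1, TGACGGTGC in Gclm and TGACAAAGC in Txnrd1. Of these 5 windows, picked for the response of their genes, the one with most matches belongs to Srxn1, which fell. The window of Nqo1 held no match, and Hmox1, Gclc and Gsr had no window. Sequence outside the windows was not searched.

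Glutathione synthesis was split within a single enzyme. Gclm (ENSMUSG00000028124), the modifier subunit of glutamate-cysteine ligase, rose 2.52-fold to 3365 in the knockout, against 1336 in WT (log2 change 1.33, SE 0.14, adjusted p = 1.10e-21 in the authors' deposited table). Gclc (ENSMUSG00000032350), the catalytic subunit of the same ligase, fell 1.32-fold, with 1238 in the knockout and 1630 in WT (log2 change -0.40, SE 0.12, adjusted p = 0.00188 in the authors' deposited table). The other genes of the cycle fell as well. Gss (ENSMUSG00000027610), glutathione synthetase, had 498 in the knockout and 682 in WT (log2 change -0.45, SE 0.16, adjusted p = 0.010 in the authors' deposited table). Gsr (ENSMUSG00000031584), the reductase that regenerates glutathione from its disulfide, had 1019 in the knockout and 1715 in WT (log2 change -0.75, SE 0.21, adjusted p = 8.61e-04 in the authors' deposited table). Of 4 genes, 1 rose and 3 fell, against 25.4% and 25.1% of all genes. The fall of Gss did not pass once the median change of its chromosomal neighbours was subtracted (log2 difference -0.33, adjusted p = 0.0759).

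**Figure D3:**
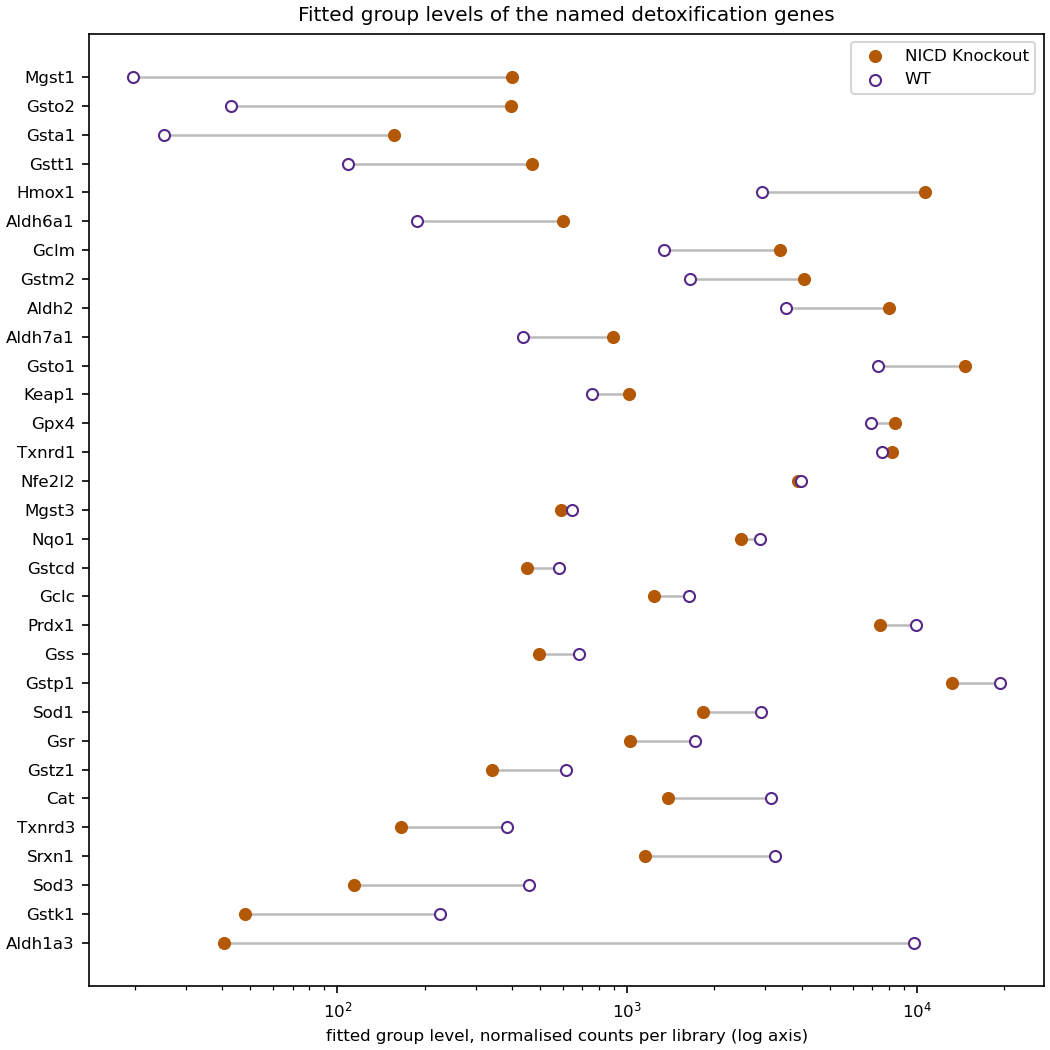
Fitted group levels (horizontal log axis, normalised counts per library) of the 31 named genes, with filled points for NICD Knockout and open points for WT, ordered by fold change. Mgst1 lies at 400 in the knockout and 19.7 in WT at the top, and Aldh1a3 at 40.7 in the knockout and 9749 in WT at the bottom.

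Among the cytosolic and kappa glutathione transferases, which conjugate glutathione to electrophiles, 9 of 18 rose and 5 fell by the authors' deposited table. Over all genes tested, 25.4% rose and 25.1% fell. The omega class, whose enzymes reduce dehydroascorbate, rose in both members. Gsto2 (ENSMUSG00000025069) rose 9.24-fold to 396 in the knockout, against 42.8 in WT (log2 change 3.21, SE 0.33, adjusted p = 2.00e-21 in the authors' deposited table). Gsto1 (ENSMUSG00000025068), its direct neighbour on chromosome 19, was far more abundant and rose with 14651 in the knockout and 7311 in WT (log2 change 1.0, SE 0.14, adjusted p = 4.55e-12 in the authors' deposited table). The 2 genes stand next to each other, yet their intervals (2.57 to 3.85 and 0.73 to 1.27) do not overlap.

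The theta class, which acts on small halogenated compounds, rose in 3 of 3 members, neighbours on chromosome 10 (25.4% of all genes rose). Gstt1 (ENSMUSG00000001663) rose 4.32-fold to 471 in the knockout, against 109 in WT (log2 change 2.11, SE 0.26, adjusted p = 2.36e-15 in the authors' deposited table). Gstt2 was fitted at 31.8 in the knockout and 10.3 in WT in the authors' deposited table (log2 change 1.62, SE 0.55, adjusted p = 0.00853). Gstt4 was barely detected, at 5.06 in the knockout and 0.19 in WT in the authors' deposited table (log2 change 4.73, SE 1.88, adjusted p = 0.0259). With WT set to a floor of 1 normalised count per library (3 over the group), the fitted ratio was 5.06 (log2 2.34). The 95% interval of its log2 change, 1.04 to 8.42, reached below that ratio, and Gstt4 was not called at a threshold of 0.01. The surrounding genes did not share these rises, since the median log2 fold change of their neighbours lay between -0.03 and 0.05.

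The mu class lies in a row on chromosome 3 and was mixed. Gstm2 (ENSMUSG00000040562) rose 2.49-fold to 4090 in the knockout, against 1646 in WT (log2 change 1.31, SE 0.14, adjusted p = 5.11e-21 in the authors' deposited table). Gstm7 rose in the authors' deposited table with 118 in the knockout and 48.6 in WT (log2 change 1.28, SE 0.27), and Gstm1 with 2706 in the knockout and 2075 in WT (0.38, SE 0.17, adjusted p = 0.0414). Gstm5 fell to 10.8 in the knockout, against 29.4 in WT (log2 change -1.44, SE 0.59, adjusted p = 0.0311 in the authors' deposited table), and Gstm6 did not pass at a mean of 5.16. Genes around the mu genes, which include one another, had a median log2 fold change of 0.38 to 0.39, and Gstm1 was not called after its subtraction (difference 0.00). In the alpha class Gsta1 (ENSMUSG00000074183) rose 6.24-fold to 157 in the knockout, against 25.1 in WT (log2 change 2.64, SE 0.62, adjusted p = 7.53e-05 in the authors' deposited table), while Gsta2 and Gsta3 did not pass, at -0.22 and -0.97.

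Of the 5 genes in the pi, kappa and zeta classes and Gstcd, 4 fell and Gstp2 did not pass by the authors' deposited table. The share of all genes that fell was 25.1%. Gstp1 (ENSMUSG00000060803), the pi class enzyme that many tumours express strongly, fell 1.47-fold to 13185 in the knockout, against 19399 in WT (log2 change -0.56, SE 0.09, adjusted p = 3.79e-09 in the authors' deposited table). Gstp2 did not pass, with a log2 fold change of -1.89 and an interval from -5.40 to 1.62 in the authors' deposited table. Gstk1 (ENSMUSG00000029864), the kappa class transferase of mitochondria and peroxisomes, fell 4.70-fold to 47.9 in the knockout, against 225 in WT (log2 change -2.23, SE 0.28, adjusted p = 1.10e-14 in the authors' deposited table). Gstz1 (ENSMUSG00000021033), the zeta class isomerase of tyrosine breakdown, fell 1.80-fold to 343 in the knockout, against 616 in WT (log2 change -0.85, SE 0.14, adjusted p = 3.00e-08 in the authors' deposited table). Gstcd, which carries a transferase-like domain, had 452 in the knockout and 583 in WT (log2 change -0.37, SE 0.13, adjusted p = 0.0118 in the authors' deposited table). Genes around Gstk1 on chromosome 6 and around Gstz1 on chromosome 12 were lower too, with median changes of -0.77 and -0.73. After subtraction Gstk1 still passed at -1.46 and Gstz1 did not, at -0.12 (adjusted p = 0.525).

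The membrane-bound transferases held the steepest rise at a mean of at least 100. Mgst1 (ENSMUSG00000008540), which sits in the endoplasmic reticulum and outer mitochondrial membrane and also reduces lipid peroxides, rose 20.3-fold to 400 in the knockout, against 19.7 in WT (log2 change 4.34, SE 0.26, adjusted p = 2.09e-60 in the authors' deposited table). It ranked 155th of 10479 genes by rise at that level, and the genes around it on chromosome 6 had a median change of -0.72, opposite in sign. Mgst2, a relative with leukotriene C synthase activity, rose 3.85-fold to 96.0 in the knockout, against 24.9 in WT in the authors' deposited table (log2 change 1.95, SE 0.33, adjusted p = 1.86e-08). Mgst3 (ENSMUSG00000026688) had 592 in the knockout and 643 in WT in the authors' deposited table and did not pass (log2 change -0.12, interval -0.49 to 0.25), but relative to its neighbours, at -0.56, it was higher by 0.44 (adjusted p = 0.0417).

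The glutathione peroxidases that passed moved by less than 2-fold. Gpx4 (ENSMUSG00000075706), the selenoenzyme that reduces phospholipid hydroperoxides and so protects from ferroptosis, rose 1.21-fold, with 8382 in the knockout and 6929 in WT (log2 change 0.27, SE 0.10, adjusted p = 0.0143 in the authors' deposited table). Gpx8, of the endoplasmic reticulum, fell with 2287 in the knockout and 3237 in WT (log2 change -0.50, SE 0.19, adjusted p = 0.0223 in the authors' deposited table). Gpx1, the main cytosolic form, did not pass with 3685 in the knockout and 4129 in WT (interval of log2 fold change -0.40 to 0.07), nor did the barely detected Gpx3 at a mean of 4.36 in the authors' deposited table.

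Of 6 peroxiredoxins, which reduce peroxides with a cysteine and are recycled by thioredoxin, 1 rose and 2 fell by the authors' deposited table. The shares over all genes were 25.4% higher and 25.1% lower. Prdx1 (ENSMUSG00000028691), the abundant cytosolic form, fell 1.33-fold, with 7456 in the knockout and 9892 in WT (log2 change -0.41, SE 0.13, adjusted p = 0.00560 in the authors' deposited table). Prdx4, the form of the endoplasmic reticulum, fell 1.78-fold to 1190 in the knockout, against 2114 in WT (log2 change -0.83, SE 0.11, adjusted p = 2.87e-12 in the authors' deposited table), while the genes around it on chromosome X had a median change of 0.39. Prdx2 rose with 3600 in the knockout and 2933 in WT (log2 change 0.30, SE 0.12, adjusted p = 0.0314 in the authors' deposited table) and did not pass once its neighbours were subtracted. The mitochondrial Prdx3, Prdx5 and the glutathione-dependent Prdx6 did not pass, at -0.19, -0.04 and -0.08 in the authors' deposited table, with no interval reaching beyond -0.40 or 0.21.

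The thioredoxins themselves did not pass the test. Txn1, the cytosolic form, had 5450 in the knockout and 4869 in WT, and Txn2, the mitochondrial form, 6130 in the knockout and 5990 in WT in the authors' deposited table, with intervals of log2 fold change from -0.07 to 0.40 and from -0.22 to 0.29. Txnrd1 (ENSMUSG00000020250), the cytosolic selenoenzyme that reduces Txn1 and a known Nrf2 target, had 8181 in the knockout and 7601 in WT (log2 change 0.11, interval -0.11 to 0.32, adjusted p = 0.429 in the authors' deposited table). The minor reductase Txnrd3 (ENSMUSG00000000811), best known from testis, fell 2.33-fold to 166 in the knockout, against 386 in WT (log2 change -1.22, SE 0.17, adjusted p = 3.94e-12 in the authors' deposited table). Txnrd2, the mitochondrial reductase, had 219 in the knockout and 300 in WT (log2 change -0.45, SE 0.16, adjusted p = 0.0115 in the authors' deposited table) and did not pass once its neighbours, at -0.24, were subtracted. Genes around Txnrd3 on chromosome 6 had a median change of -0.54, and Txnrd3 passed after subtraction at -0.68.

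Among the superoxide dismutases and catalase 3 of 4 genes fell and none rose by the authors' deposited table. Of all genes tested, 25.1% fell and 25.4% rose. Cat (ENSMUSG00000027187), the peroxisomal catalase that splits hydrogen peroxide, fell 2.25-fold to 1386 in the knockout, against 3124 in WT (log2 change -1.17, SE 0.12, adjusted p = 2.86e-22 in the authors' deposited table). Sod3 (ENSMUSG00000072941), the secreted extracellular dismutase, fell 4.0-fold to 114 in the knockout, against 457 in WT (log2 change -2.0, SE 0.39, adjusted p = 1.70e-06 in the authors' deposited table). The median change of the neighbours was -0.09 for Cat and -0.13 for Sod3. Sod1 (ENSMUSG00000022982), the cytosolic copper-zinc enzyme, fell 1.58-fold to 1834 in the knockout, against 2894 in WT (log2 change -0.66, SE 0.12, adjusted p = 1.16e-07 in the authors' deposited table). Its neighbours on chromosome 16 fell further, with a median of -1.41, so that relative to them Sod1 was higher by 0.76 (adjusted p = 9.85e-10) and the direction turned. Sod2, the mitochondrial manganese enzyme, did not pass with 925 in the knockout and 1079 in WT in the authors' deposited table (interval of log2 fold change -0.45 to 0.01).

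Of 15 aldehyde dehydrogenases 6 rose and 1 fell by the authors' deposited table, against 25.4% and 25.1% of all genes tested. The 1 that fell had the largest change of all 64 genes. Aldh1a3 (ENSMUSG00000015134), which makes retinoic acid from retinaldehyde and often dominates the aldehyde dehydrogenase activity used to mark stem-like tumour cells, fell 239-fold to 40.7 in the knockout, against 9749 in WT (log2 change -7.90, SE 0.21, adjusted p listed as 0 in the authors' deposited table). It ranked 26th of 10479 genes by fall, and the genes around it on chromosome 7 had a median change of 0.00. Aldh1a1, another retinaldehyde dehydrogenase, rose 7.37-fold, but to only 50.2 in the knockout, against 6.82 in WT (log2 change 2.88, SE 0.70, adjusted p = 1.54e-04 in the authors' deposited table). The paralogs therefore moved in opposite directions.

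Aldh2 (ENSMUSG00000029455), the mitochondrial enzyme that oxidises acetaldehyde and the lipid aldehyde hydroxynonenal, rose 2.27-fold to 8026 in the knockout, against 3530 in WT (log2 change 1.19, SE 0.12, adjusted p = 8.44e-23 in the authors' deposited table). Aldh3a2, which oxidises fatty aldehydes, rose 1.63-fold, with 1702 in the knockout and 1045 in WT (log2 change 0.70, SE 0.15, adjusted p = 8.75e-06 in the authors' deposited table). Aldh6a1 (ENSMUSG00000021238), of valine breakdown, had 599 in the knockout and 188 in WT (log2 change 1.67, SE 0.18, adjusted p = 1.07e-19 in the authors' deposited table), but the genes around it on chromosome 12 had a median change of 1.43 and after subtraction it did not pass (0.24, adjusted p = 0.279). Aldh7a1 (ENSMUSG00000053644), of lysine breakdown, had 896 in the knockout and 436 in WT (log2 change 1.04, SE 0.15, adjusted p = 3.58e-11 in the authors' deposited table), with neighbours on chromosome 18 at 0.65, and passed after subtraction at 0.39. Aldh5a1, the succinate semialdehyde dehydrogenase, rose at a low level, with 33.5 in the knockout and 5.01 in WT (log2 change 2.74, SE 0.62 in the authors' deposited table).

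The other 8 aldehyde dehydrogenases did not pass. Aldh9a1, Aldh16a1, Aldh3b1 and Aldh4a1, the last an enzyme of proline breakdown, had log2 fold changes between -0.25 and -0.01 by the authors' deposited table. Aldh1l2, the mitochondrial folate enzyme, had 1933 in the knockout and 4703 in WT in the authors' deposited table, but an SE of 0.69 (log2 change -1.28, adjusted p = 0.109). Aldh18a1, of proline synthesis, had an SE of 0.50 in the authors' deposited table (log2 change -0.57, interval -1.55 to 0.42). Aldh1l1 and the barely detected Aldh3a1 had log2 fold changes of -0.96 and 1.55 by the authors' deposited table.

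To show where neighbouring genes moved alike, each gene was set beside the median of up to 10 expressed protein-coding genes on either side. That median reached 0.3 either way for 18 of the 64 genes, and for 3533 of 14447 genes (24.5%) in all. Of the called genes among the 18, 10 moved in the direction of their neighbours and 3 against it. The same count over all called genes was not made, so these counts have no background. Among the 10 are Gstm1, Gstm2 and Gstm7, whose neighbours include other mu genes. The 3 that moved against their neighbours were Mgst1, Gstm5 and Prdx4. After subtraction the counts were 22 higher and 15 lower, with Aldh6a1, Gss, Gstm1, Gstz1, Prdx2 and Txnrd2 no longer called, Aldh9a1, Mgst3 and Gpx1 newly called, and Sod1 turned from lower to higher. The annotation used for gene order is of build GRCm38. Neither the share to be expected from a shuffled gene order nor the cause of any shift was tested.

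**Figure D4:**
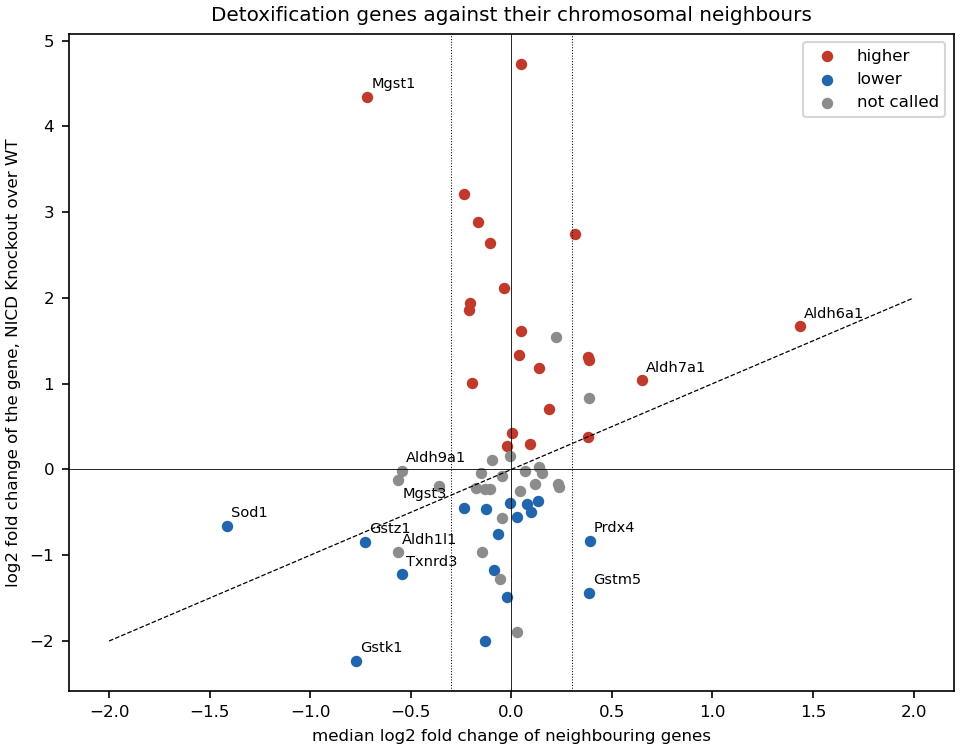
Log2 fold change of each detoxification gene (vertical axis, NICD Knockout over WT) against the median log2 fold change of its chromosomal neighbours (horizontal axis), coloured by call, with dotted lines at 0.3 either way and a dashed line where both are equal. Aldh1a3 (-7.90) is left out of the plotted range, Sod1 lies above the dashed line at a neighbour median of -1.41, Aldh6a1 lies near it at 1.43, and Mgst1 stands far above it.

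Several of these genes have near copies, and the share of a gene's 31-base stretches that also occur in transcripts of other genes measures how far counting could split reads. In GENCODE M21 transcripts that share was 92.2% for Gsta1, 58.8% for Gsta2, 57.8% for Gstp1 and 56.9% for Gstp2, so the values within the alpha and pi classes are uncertain. Gpx4 shared 55.5%, nearly all with a pseudogene, and Sod1 35.4%, so their levels are uncertain as well. Gstm1 shared 30.4%, mostly with the pseudogene Gstm2-ps1, and 2.74% with Gstm2, and Aldh4a1 shared 45.9%, mostly with the predicted gene Gm21969. Gstz1 shared 19.3%, mostly with Pomt2, and Gss 19.8%. By contrast Aldh1a3 shared 2.35% and Gclm 2.77%.

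Around these enzymes, 9 lists of supporting genes were counted, 130 tested genes in all, of which 36 rose and 39 fell by the authors' deposited table (57.7% called, against 50.5% of all genes), with a median log2 fold change of -0.06. The counts of each list given below stand beside 25.4% of all genes higher and 25.1% lower. NADPH supply, which feeds both reductase systems, had 3 of 14 higher and 6 lower by the authors' deposited table. Its leading genes were the isocitrate dehydrogenases Idh2 and Idh1 and the NAD kinase Nadk, all lower, with log2 fold changes of -1.12, -0.74 and -0.65 by the authors' deposited table. Idh2 is mitochondrial and Idh1 cytosolic, and each makes NADPH. Glutathione supply and breakdown had 6 of 18 higher and 5 lower by the authors' deposited table, and those of smallest p at a mean of at least 100 were the amino acid transporter gene Slc1a4 (-1.78) and the exporter genes Abcc5 (0.57) and Abcc4 (0.55). Below that mean, Ggt5, a gamma-glutamyl transferase family gene, had a smaller p and fell to 7.02 in the knockout, against 174 in WT (log2 change -4.64, SE 0.50, adjusted p = 5.77e-19 in the authors' deposited table). Slc7a11, the cystine transporter that limits glutathione synthesis, was named after its value was seen and fell to 1530 in the knockout, against 3264 in WT (log2 change -1.09, SE 0.46, adjusted p = 0.0356 in the authors' deposited table).

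Partners of Nrf2 had 3 of 14 higher and 3 lower by the authors' deposited table. Bach1, a repressor that competes with Nrf2 at its elements, fell to 178 in the knockout, against 617 in WT (log2 change -1.80, SE 0.18, adjusted p = 5.07e-22 in the authors' deposited table), and the genes around it on chromosome 16 had a median change of -1.33. Sqstm1, the autophagy adaptor that binds Keap1, rose to 39850 in the knockout, against 17445 in WT (log2 change 1.19, SE 0.18 in the authors' deposited table), and Mafg, a small Maf partner of Nrf2, had a log2 fold change of 1.08 with neighbours at 0.74. Other Nrf2 target genes had 6 of 18 higher and 7 lower by the authors' deposited table. The heme transporter gene Slc48a1 and the ferritin light chain gene Ftl1 rose in the authors' deposited table with log2 fold changes of 1.2 and 0.90. The carbonyl reductase gene Cbr1 fell to 5.21 in the knockout, against 280 in WT (log2 change -5.75, SE 0.38, adjusted p = 7.81e-49 in the authors' deposited table), with neighbours on chromosome 16 at -1.07.

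Glutaredoxins, thioredoxin-like proteins and methionine sulfoxide reductases had 3 of 18 higher and 6 lower by the authors' deposited table. Glrx5, Txndc5 and Nxn led that list with log2 fold changes of -1.39, -0.86 and -0.73 by the authors' deposited table, and medians around Glrx5 and Txndc5 were -0.80 and -0.49. Selenoprotein synthesis, on which Gpx1, Gpx4 and the thioredoxin reductases depend, had 1 of 12 higher and 4 lower, with Secisbp2l, Eefsec and Sephs1 at -0.59, -0.51 and -0.40 in the authors' deposited table. Genes around Eefsec and Secisbp2l had medians of -0.54 and -0.45.

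Enzymes that produce oxidants had 5 of 15 higher and 2 lower by the authors' deposited table, against 25.4% and 25.1% of all genes. Ncf4, a cytosolic subunit of the phagocyte NADPH oxidase, rose to 1140 in the knockout, against 13.6 in WT (log2 change 6.39, SE 0.28, adjusted p = 9.72e-111 in the authors' deposited table). Xdh, the xanthine dehydrogenase that yields superoxide in its oxidase form, rose to 2098 in the knockout, against 216 in WT (log2 change 3.28, SE 0.19, adjusted p = 1.65e-65 in the authors' deposited table). Other aldehyde and ketone enzymes had 6 of 12 higher and 4 lower, led by the retinol dehydrogenase gene Dhrs9 at 460 in the knockout and 4.31 in WT (log2 change 6.74, SE 1.25 in the authors' deposited table), with Adh7 at -1.0 and Rdh11 at -0.67. Metallothioneins and metal supply had 3 of 9 higher and 2 lower by the authors' deposited table, with the metal-binding Mt2 at a log2 fold change of 2.34, the zinc exporter gene Slc30a1 at -1.12 and Hmox2 at -0.55.

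**Figure D5:**
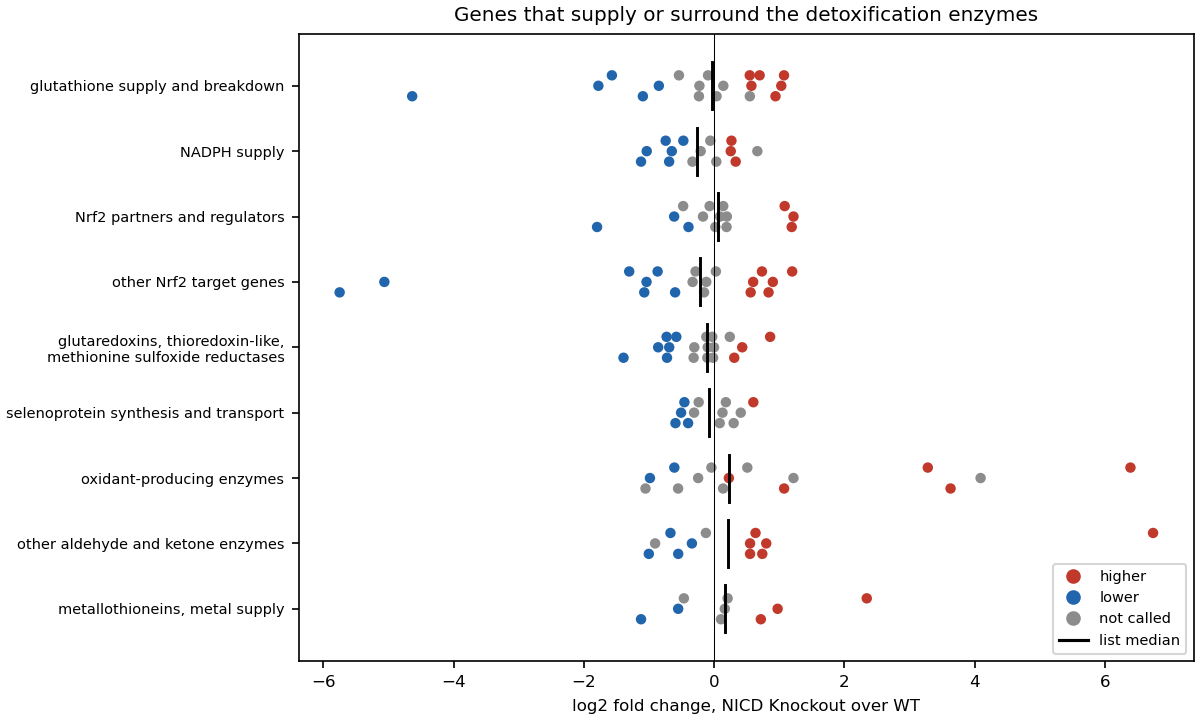
Log2 fold change (horizontal axis, NICD Knockout over WT) of the 130 tested genes in 9 supporting lists (rows), coloured by call, with a black bar at each list's median. Each list holds genes on both sides of 0, and the list medians lie between -0.27 and 0.23.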

How the data were processed

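RNA of 3 libraries of mLPS1 labelled NICD Knockout and 3 labelled WT was sequenced, grouped here by the genotype label. Salmon, DESeq2 and build mm39 appear in the submitters' processing notes, without versions, and the filter on rows is not stated in them. The authors deposited, per the file headers, a mean of counts divided by size factors (a signal that is never negative), a log2 fold change with its SE, also on the log2 scale, the Wald statistic (a score), a p-value and its Benjamini-Hochberg adjusted form. The direction, knockout over wild type, comes from the table's name. Recomputing the statistic, p and adjustment gave differences of at most 1.56e-13, and 2 of 14472 rows have no p.

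No model was fitted here: calls are the authors' DESeq2 adjusted p under 0.05, and the edgeR test planned for counts needs values of single libraries, which were not used here. Computed from the table were 95% Wald intervals, group levels (assuming 3 libraries in each group), and neighbour medians over genes with a mean of at least 100, ordered by GENCODE M21 (14456 rows matched by identifier). Promoter windows were matched by symbol, and protein identities were not computed for want of sequences. The recalculated tests and neighbour medians were tested on simulated data. The alternatives were stricter thresholds, filters, centring and neighbour subtraction, which takes the neighbour median as known without error. Shared 31-base stretches were counted in GENCODE M21 transcripts, a step added after the values were seen.

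Genes named are the 10 listed by name, members past 0.05 with a mean of at least 100 and a log2 change of at least 1, the member with the highest mean in each family, and up to 3 genes of smallest p with a mean of at least 100 per list. For 1 gene of these lists the result is not reported here. Ggt5 and Slc7a11 were named after their values were seen. Other members are given to account for all 64. The members and lists were chosen with earlier results of these data known. Python 3.11.15, numpy 2.4.6, pandas 2.3.3, scipy 1.17.1 and matplotlib 3.10.9 were used.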

Additional observations from a re-analysis of the deposited data

How the results depend on the processing

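The counts of 22 genes higher and 18 lower became 13 and 10 with Bonferroni adjustment and 7 and 3 in a test of changes beyond 2-fold, and those of the 9 supporting lists, 36 higher and 39 lower, became 12 and 18 and then 4 and 4. The genes that passed beyond 2-fold were Mgst1, Mgst2, Gsto2, Gstt1, Hmox1, Aldh5a1 and Aldh6a1, higher, and Aldh1a3, Gstk1 and Srxn1, lower. Under a threshold of 0.01, filters at a mean of 10 or 100, centring on genes with a mean of at least 100 (median -0.05), subtraction of neighbours and, for the 64 genes, all rows of a symbol, every one of the 4 counts stayed within 1.5 times. With neighbours subtracted the sign turned for Sod1 (0.76), Mgst3 (0.44), Nfe2l2 (0.11), Aldh9a1 (0.53), Prdx3 (0.16) and Txn2 (-0.10), of which Nfe2l2, Prdx3 and Txn2 were not called either way. With centring it turned for Nfe2l2 (0.012), Prdx5, Aldh16a1 and Aldh9a1, none of them called. No paired analysis was possible because no value of a single library was used here, and for the same reason no library was left out, no other tool was run and the depth of a library bounds no value. Precision fell with level: SEs had a median of 0.14 in the 49 genes at a mean of 100 or more, and of 0.62 in the other 15.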

Other observations

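Because Aldh1a3 had the largest change, 25 further genes of retinoid uptake, synthesis, breakdown and response were looked up after that value was seen, and 16 had a row, 4 higher and 5 lower by the authors' deposited table (background 25.4% and 25.1%). Cyp26b1, which breaks retinoic acid down and is itself induced by it, fell 5.87-fold to 303 in the knockout, against 1778 in WT (log2 change -2.55, SE 0.17, adjusted p = 1.30e-46 in the authors' deposited table), and the genes around it had a median change of -0.75. Rdh5, a retinol dehydrogenase, fell 8.21-fold, with 122 in the knockout and 1003 in WT, and the receptor gene Rxra fell 3.15-fold in the authors' deposited table. In the other direction Stra6, the receptor that takes up retinol from its plasma carrier, rose 15.6-fold to 149 in the knockout, against 9.56 in WT in the authors' deposited table (log2 change 3.96, SE 0.40). Rarb, a receptor gene that retinoic acid induces, was fitted at 15.6 in the knockout and 0.99 in WT, near the limit of detection (log2 change 3.98, SE 1.13, adjusted p = 0.00132 in the authors' deposited table). Of the genes listed for response, Tgm2 rose with 1540 in the knockout and 851 in WT (log2 change 0.86, SE 0.22, adjusted p = 4.88e-04 in the authors' deposited table). The other, Rarres2, did not pass at a mean of 5.47 (log2 change -2.56, SE 1.32). The induced genes Cyp26b1 and Rarb thus moved in opposite directions, and retinoic acid itself was not measured.

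Some well expressed genes of this set had a wide spread, though the set as a whole did not. Over the 4406 genes whose mean reached 1000, SEs had a median of 0.13 and a 95th percentile of 0.23 in the authors' deposited table. The 33 detoxification genes at that level had a median SE of 0.129, against 0.134 for all genes there. Of the 33, 3 lay above that percentile, Aldh1l2 (0.69), Aldh18a1 (0.50) and Nqo1 (0.25). Among genes of the supporting lists at that level the widest were Cth (0.98), Chac1 (0.58), Slc7a11 (0.46) and Slc1a5 (0.45) in the authors' deposited table, which act in cysteine synthesis, glutathione breakdown, cystine uptake and glutamine uptake. The share of the supporting genes above the percentile was not computed, and which libraries set this spread was not tested.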
